A study of Homo sapiens with 4 samples.

Results

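ADAR was knocked down in human cells labelled HepG2, and the expression of 7116 of the 14232 genes measured on the arrays is described here. A gene was included when the mean of its log2 intensities on the 2 arrays of these cells was at or above the median over all genes, which was 5.31, or an intensity of 39.7. The choice used the level of a gene and not its difference between the arrays. HepG2 is a line derived from a hepatocellular carcinoma. The ADARkd cells carried a stably transfected plasmid with an siRNA against ADAR1, picked from several siRNAs for its reduction of ADAR, and the SCR cells carried the same kind of plasmid with a scrambled siRNA. The labels do not say whether the cells were clones or pools. K562, a chronic myeloid leukaemia line, had been treated in the same way and gave another 2 arrays, which are used below only for comparison. The series was made to learn how ADAR acts on splicing, and the values here are its gene-level intensities.

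ADAR, also called ADAR1, converts adenosine to inosine within double-stranded RNA. One of its isoforms is induced by interferon. Editing by ADAR keeps the cell's own double-stranded RNA from being taken for viral RNA by sensors such as MDA5 and PKR, and also recodes a few transcripts and alters splice sites. The gene-level values do not separate the isoforms and do not measure editing.

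With 1 array per arm there was no replicate, so no difference below has a test, an error or a p-value. Differences are log2 intensity on the ADARkd array minus log2 intensity on the SCR array, and "higher" and "lower" refer to the ADARkd array. They compare these arrays, not the conditions. In cells grown in bulk, a smaller share of cells with a transcript and less of it per cell cannot be told apart. Levels are not compared between genes, because probes differ in brightness.

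ADAR itself was at a log2 level of 8.96 on the SCR array and 7.27 on the ADARkd array. The difference of -1.69 is 3.23-fold, which leaves 31.0% of the SCR intensity. Since the siRNA had been selected for this reduction, the value checks the labels only. ADARB1, the other catalytically active ADAR enzyme, was at 8.15 and 8.26. ADARB2, a relative without known editing activity, was at 6.44 and 5.70, a difference of -0.74. The tRNA deaminase genes ADAT1 (6.70 and 6.90) and ADAT2 (6.93 and 7.13) were both 0.21 higher, and ADAD1 lay under the filter. Of the 5 family members that passed the filter, 2 were thus at least 1.5-fold lower, the target ADAR itself and ADARB2, and 0 higher.

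The label of the cells was set against 10 lists of cell type markers. Of 26 hepatocyte markers measured, 2 passed the filter, CPS1 and FOXA1, and the summed intensity of the list was 2276 on the SCR array and 1894 on the ADARkd array. CPS1, the enzyme that starts the urea cycle, was at 10.89 and 10.56, which makes up most of that sum, and FOXA1 was at 6.13 and 6.23. Albumin (ALB), the main plasma protein made by hepatocytes and named after its value was seen, was at 3.04 and 2.97. The cells are therefore called labelled HepG2 throughout. Of the other lists, 8 of 12 fibroblast and stromal markers passed, with summed intensities of 2277 and 2369. For simple and squamous epithelium, 7 of 13 passed, with sums of 2259 and 2802. Of the erythroid (12 measured), endothelial (10) and adipocyte and muscle (7) markers 0 passed, with sums of 207 and 201, 151 and 161, and 133 and 121. One marker passed in each of the remaining lists: CD68 of 15 lymphocyte and macrophage markers (sums of 345 and 340), ABCA3 of 9 lung markers (203 and 192), PDX1 of 10 intestine and pancreas markers (174 and 168) and MITF of 11 melanocyte and neural markers (218 and 284).

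Over the 7116 genes the median difference was 0.11, with 5% of genes under -0.62, 5% over 0.82 and a standard deviation of 0.47 across genes. At least 2-fold apart were 287 genes, or 4.03%. Of these, 175 were higher (2.46%) and 112 lower (1.57%), so that 61.0% of them were higher. That split depended on how the arrays were brought to one scale: after quantile normalization 126 genes were higher and 149 lower (45.8% higher), and after cyclic loess 126 and 147 (46.2%). Both scalings moved the median of all genes close to 0, by 0.10, and median differences of gene groups are best read against the 0.11 of all genes. A 1.5-fold bound was passed by 879 genes upwards (12.4%) and by 408 downwards (5.73%). After quantile scaling these counts were 620 and 547, and after loess 609 and 555, so the excess of higher genes at this bound also depends on the scaling.

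The dimmer array can lie under the filter level, where background may set the value. This applied to 28 of the 175 higher and to 30 of the 112 lower genes, and the size of those differences is uncertain. Both arrays were at or above the level for 147 and 82 genes. Differences were not a matter of dim genes alone. With the genes split by mean level into 4 sets of 1779, 31 genes of the brightest set were at least 2-fold higher and 18 lower, against 41 and 39 in the dimmest set. The median difference ran from 0.02 in the dimmest set to 0.16 in the brightest, and after quantile normalization from 0.00 to 0.03. Among the 15 genes with the highest mean, which include ACTB, ENO1, LDHA and the mitochondrial transcript ND5, the differences ran from -0.67 (HSPA8, a constitutive chaperone) to 0.59 (HSP90AA1, a stress-inducible one). Several of these 15 genes, such as ACTB, ACTG1 and ENO1, have close copies in the genome whose signal the probes may share.

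**Figure D1:**
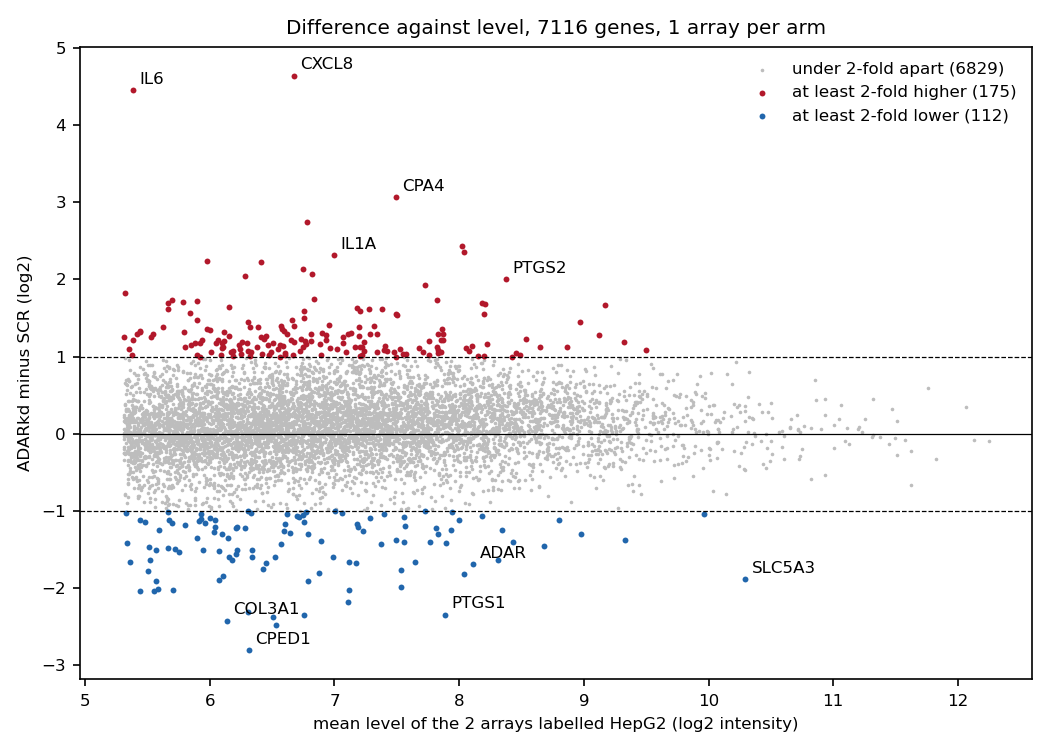
Difference (ADARkd minus SCR, log2) against the mean log2 intensity of the 2 arrays labelled HepG2, one point per gene for 7116 genes. Red marks the 175 genes at least 2-fold higher and blue the 112 at least 2-fold lower, and the dashed lines mark 2-fold. The points past the lines lie at nearly all levels, and CXCL8 and IL6 stand highest.

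The genes with the largest differences are given first, among those measured above the level on both arrays. CPA4, a secreted carboxypeptidase, was at 5.96 and 9.03, a difference of 3.06. EPGN, a ligand of the EGF receptor, was at 5.40 and 8.15 (2.75). CLDN1, a claudin of the tight junction, was at 6.81 and 9.24 (2.44). CCN1, a matricellular protein, was at 6.86 and 9.22 (2.35). CCN1 and the genes before it encode secreted or junction proteins. The integrin chains ITGA6 (1.64) and ITGB8 (1.61) and the scavenger receptor OLR1 (1.74) belong to the same group of 20. So do UBE2F (1.59), the ubiquitin ligase RNF144B (1.64), the kinase PLK2 (1.92), PLAC8 (1.67) and APOBEC3C, a cytidine deaminase that acts on DNA, which went from 6.41 to 8.0 (1.59). MB21D2 (2.14) and CCNQ (2.07), a cyclin that activates CDK10, complete the part of the list outside the groups described below.

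Among the 20 lowest were genes of several kinds, of which the matrix, complement, prostaglandin and transporter genes are described below. MRC2, an endocytic receptor that takes up collagen, was at 8.53 and 6.54, a difference of -1.99. CEMIP, which takes part in hyaluronan breakdown, was at 7.69 and 5.32 (-2.37). CXCR4, the receptor of CXCL12, was at 8.95 and 7.13 (-1.82). VIPR2, a receptor of vasoactive intestinal peptide, was at 6.99 and 5.36 (-1.63). HGSNAT, a lysosomal acetyltransferase of heparan sulfate breakdown, was at 8.48 and 6.81 (-1.66). The remaining genes of this set were TMT1A (-2.02), the zinc finger gene TSHZ2 (-1.91), MCTP2 (-1.77), TCP11L2 (-1.76), SH3BP5 (-1.67), WFDC1 (-1.63) and KLHL24 (-1.60). ADAR stood at place 13 among them and at place 25 among all genes that passed the filter. With genes dim on the ADARkd array included, the lowest were CPED1 (7.71 and 4.91, -2.81) and HPD, an enzyme of tyrosine breakdown (7.77 and 5.29, -2.48). C1orf21 (-2.03), GPNMB, a glycoprotein of the lysosome and cell surface (-2.30), SCNN1A, a subunit of the epithelial sodium channel (-2.04), and CDON (-2.04) were in the same position. At the other end, MYEOV (4.86 and 7.10, 2.24), the tetraspanin TSPAN8 (5.30 and 7.52, 2.22) and SPINK6 (5.26 and 7.30, 2.04) were dim on the SCR array.

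**Figure D2:**
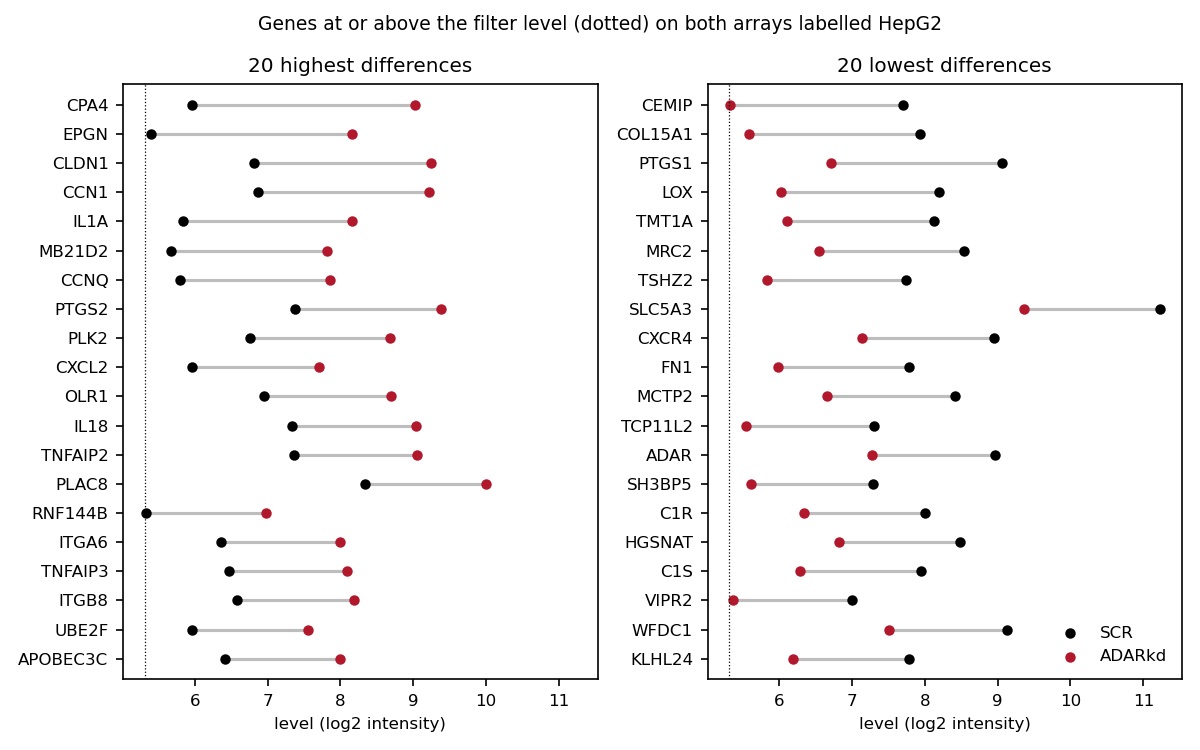
Log2 intensity on the SCR array and on the ADARkd array labelled HepG2 for the 20 highest and the 20 lowest differences among genes at or above the filter level on both arrays, 1 array per arm. The vertical line is the filter level of 5.31. CPA4 and EPGN have the widest gaps upwards and CEMIP, COL15A1 and PTGS1 downwards.

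Secreted cytokines held the widest differences of all. Of 28 cytokine and chemokine genes measured, 16 lay under the filter and 12 passed, 3 of them dim on the SCR array (CXCL8, IL6 and CXCL16). Of the 12, 9 were at least 1.5-fold higher and 1 lower, with a median of 0.84, and of 0.80 and 0.79 after quantile and loess scaling. Over all 28 members the median was 0.13. CXCL8, the main chemokine for neutrophils, was at 4.36 on the SCR array and 9.0 on the ADARkd array, a difference of 4.64. IL6, the cytokine that drives the acute-phase response, was at 3.16 and 7.61 (4.46). It had 2 transcript clusters, and these values are from the 1 with the higher mean alone. Both were far under the filter level in SCR and well over it in ADARkd, so the direction is clear on these arrays and the fold is not. IL1A, an alarmin of the interleukin-1 family, was at 5.83 and 8.15 (2.32), with both arrays over the level. Its relatives IL18 (7.34 and 9.03, 1.69) and IL1B (5.71 and 6.5, 0.78) were higher too. CXCL2 was at 5.97 and 7.71 (1.74), and CXCL3 at 6.01 and 6.88 (0.87). LIF, a cytokine of the IL-6 family, was 0.79 higher. CCL5, a chemokine for T cells, went the other way, from 6.54 to 5.38 (-1.16). CSF1 (5.57 and 5.55) and CSF3 (5.72 and 5.90) were nearly equal on the arrays.

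The bases before the start sites of CXCL8, IL6 and IL1A are shown because these cytokines had the largest differences and all are known as targets of NF-kB or AP-1. They come from RefSeq on GRCh38.p14, while the array files use hg18, so the coordinates are those of GRCh38 alone. Each runs 5′ to 3′ on the strand of its gene over the 250 bases before the start site, and for IL1A the first of the table's entries was taken. Capitals mark matches to the kB motif GGNNNTTCC (GGAANNNCC on the other strand) or to the AP-1 motif TGANTCA, which is its own reverse complement. The motifs share no letters in these windows.
CXCL8, chr4:73740319-73740568, plus strand: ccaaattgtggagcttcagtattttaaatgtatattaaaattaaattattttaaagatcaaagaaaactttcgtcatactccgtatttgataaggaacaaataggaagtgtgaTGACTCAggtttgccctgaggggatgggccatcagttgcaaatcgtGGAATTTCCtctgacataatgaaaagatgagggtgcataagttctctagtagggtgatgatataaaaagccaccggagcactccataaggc
IL6, chr7:22726950-22727199, plus strand: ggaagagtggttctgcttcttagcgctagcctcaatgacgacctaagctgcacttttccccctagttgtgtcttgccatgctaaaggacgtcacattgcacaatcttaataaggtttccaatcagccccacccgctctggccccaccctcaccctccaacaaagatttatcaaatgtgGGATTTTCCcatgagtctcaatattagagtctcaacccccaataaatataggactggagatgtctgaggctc
IL1A, chr2:112784494-112784743, minus strand: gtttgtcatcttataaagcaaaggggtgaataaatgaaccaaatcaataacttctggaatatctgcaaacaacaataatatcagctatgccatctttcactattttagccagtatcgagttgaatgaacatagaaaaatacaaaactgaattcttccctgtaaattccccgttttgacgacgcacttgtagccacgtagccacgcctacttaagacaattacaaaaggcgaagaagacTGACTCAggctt
CXCL8 holds an AP-1 match, TGACTCA, from base -137 to -131 and a kB match, GGAATTTCC, from -91 to -83. IL6 holds a kB match, GGATTTTCC, from -72 to -64. IL1A holds the AP-1 match from -12 to -6, and a further one, TGAGTCA, from 39 to 45 after the start, outside the printed bases. Over windows of 250 bases before and 50 after the start, 20.1% of 27305 promoters held the kB motif and 7.76% the AP-1 motif. Among the genes that passed the filter and had a promoter in the table (5977), the shares were 23.5% and 3.88%. They were 22.4% (32 of 143) and 8.39% (12 of 143) for genes at least 2-fold higher, and 18.5% (15 of 81) and 8.64% (7 of 81) for genes at least 2-fold lower. A match is a description of the letters. It shows no binding.

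Among receptors of cytokines, 6 of 18 members that passed were at least 1.5-fold higher and 1 lower, with a median of 0.18. IFNGR1, a chain of the interferon gamma receptor, was at 6.48 and 7.65 (1.18). TNFRSF12A, the receptor of TWEAK, was at 7.0 and 8.0 (1.0). IL6ST, the shared signalling chain of the IL-6 family, was at 8.35 and 9.24 (0.89). IFNAR2 (0.75), IL20RB (0.91) and IL4R (0.64) were the other 3, and LIFR, which pairs with IL6ST, was at 7.73 and 6.75 (-0.98).

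NF-kB subunits, inhibitors and feedback genes were higher in 10 of 24 cases at 1.5-fold and lower in 0, with a median of 0.51, or 0.38 and 0.37 after the other scalings. TNFAIP3, the deubiquitinase A20 that limits NF-kB signalling, was at 6.46 and 8.09 (1.62). TNFAIP2, named for its induction by TNF, was at 7.36 and 9.05 (1.68). Of the subunits, NFKB1 was 0.73 and NFKB2 0.82 higher. The inhibitor NFKBIB was 0.71 higher, the adaptor TRAF3 0.71, the adhesion molecule ICAM1 0.74 and the ribonuclease ZC3H12A, which degrades cytokine mRNA, 0.94. The last 2 were dim in SCR. The kinase subunit IKBKB, named after its value was seen, was at 6.91 and 6.52 (-0.39). Of the markers of lymphocytes and macrophages, which also express these genes, 1 of 15 passed the filter, and their summed intensity was 345 on the SCR and 340 on the ADARkd array.

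Feedback regulators of the ERK pathway and AP-1 genes were also more often higher (11 of 25 at 1.5-fold, 9 after either scaling) than lower (1), with a median of 0.40. The higher genes included ERK phosphatases and ETS factors. DUSP5 was at 5.79 and 7.04 (1.26), DUSP6 at 5.33 and 6.5 (1.17) and DUSP4, dim in SCR, at 4.41 and 6.23 (1.83). ERRFI1, an inhibitor of the EGF receptor, was at 7.22 and 8.52 (1.30). The transcription factors ETV5 (1.13) and ETV4 (0.71) and PHLDA1 (1.21) were in this group. The AP-1 subunits themselves had a median of 0.13 over 6 genes, with 1 of them, FOSL1 (0.70), past 1.5-fold. JUN (5.97 and 5.61) and FOS (6.12 and 6.07), named after their values were seen, were not higher. DUSP2 was lower (-0.64). Upstream, EPGN and EREG (8.09 and 9.22, 1.13) were the EGF receptor ligands past 1.5-fold, and LRIG1, a negative regulator of the receptor, was lower (-0.66), while the median of the 7 members that passed was -0.20.

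Genes of prostaglandin synthesis differed in opposite directions. PTGS2, the inducible cyclooxygenase, was at 7.37 and 9.38, a difference of 2.01. PTGS1, the constitutive cyclooxygenase, was at 9.06 and 6.72, a difference of -2.34. The enzymes catalyse the same step, and all values lay over the filter level. PLA2G4A, the phospholipase that releases arachidonic acid, was at 6.28 and 7.28 (1.0). PTGES, the prostaglandin E synthase that works after PTGS2, was at 6.72 and 8.27 (1.55). The prostaglandin E receptor PTGER4 was 0.78 higher from a dim SCR value. Lower were ABCC4, which exports prostaglandins (7.79 and 6.59, -1.2), and the prostaglandin-metabolising reductases PTGR2 (-0.76) and AKR1C3 (-0.74). In all, 4 of 10 members that passed were at least 1.5-fold higher and 4 lower, with a median of 0.07 that became -0.04 and -0.05 after the other scalings.

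**Figure D3:**
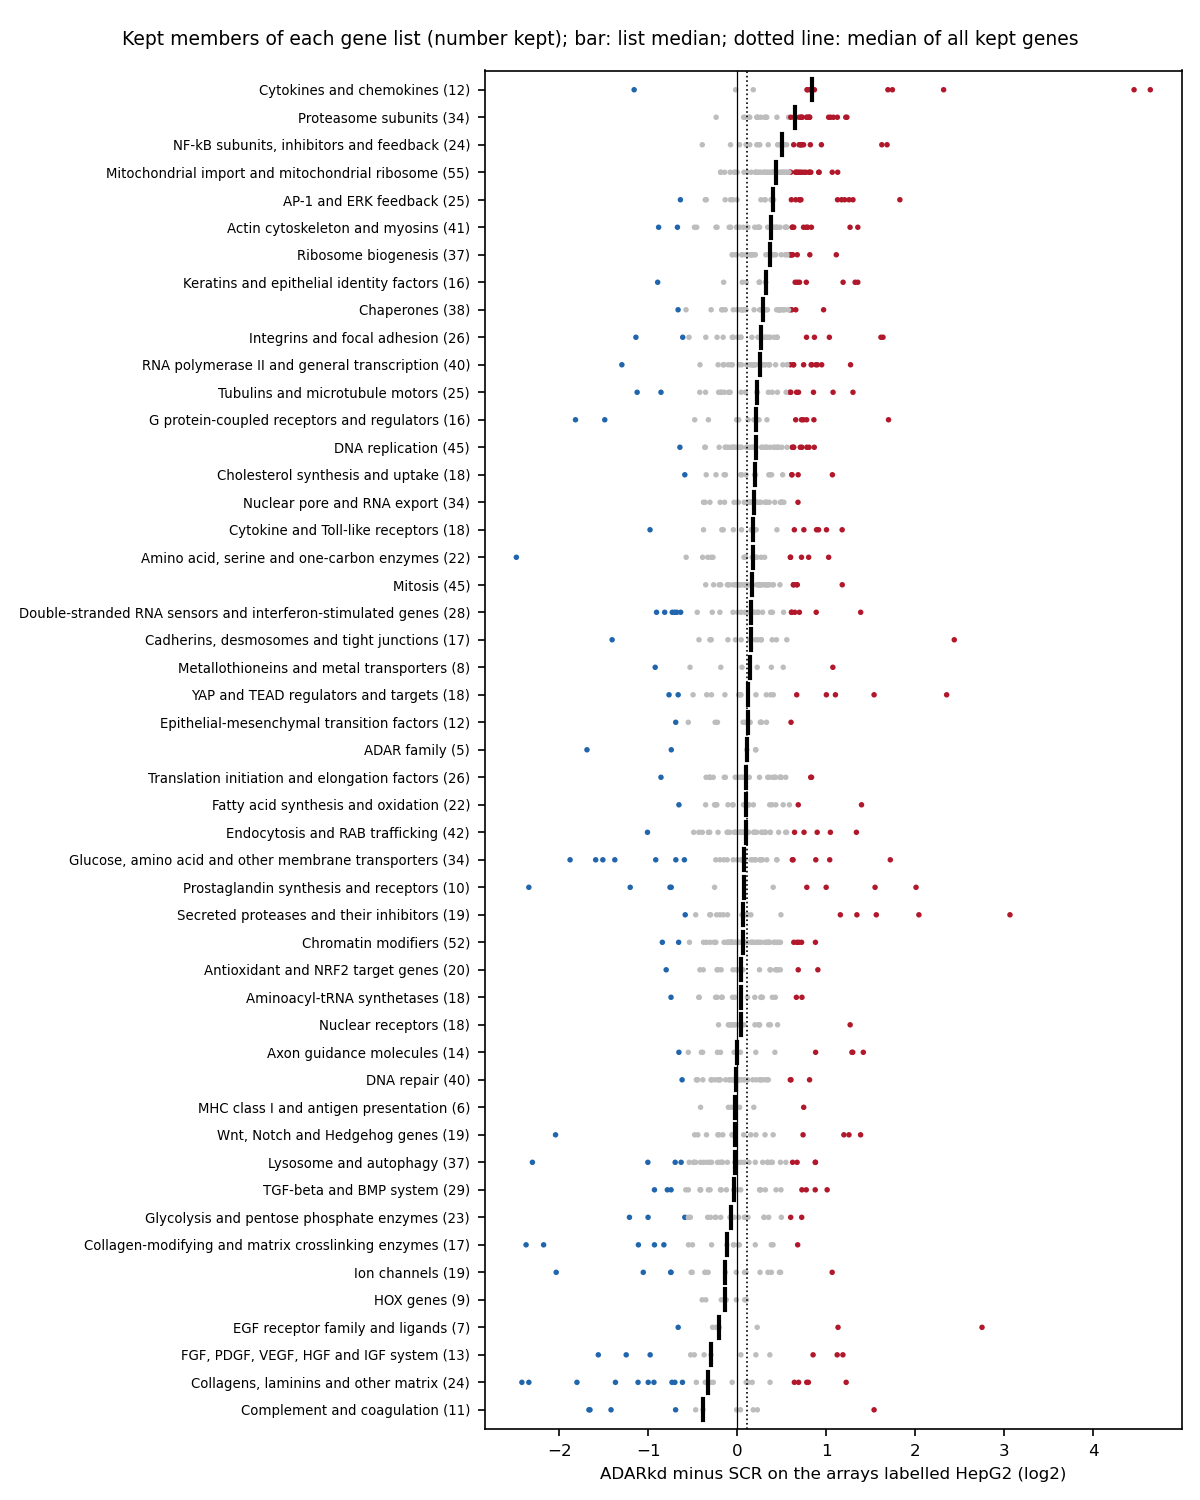
Differences (ADARkd minus SCR, log2) of the members that passed the filter in each gene list with at least 5 such members, on the arrays labelled HepG2. Red and blue points are at least 1.5-fold higher and lower, black bars are list medians, the solid line is 0 and the dotted line is the median of all 7116 genes, 0.11. Cytokines and proteasome subunits have the highest medians, and complement, matrix and growth factor genes the lowest.

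Genes of the extracellular matrix were lower and higher. Of 24 members of the matrix list that passed, 10 were at least 1.5-fold lower and 5 higher (3 after either scaling), with a median of -0.33 (-0.43 after either scaling). With only genes over the 75th percentile of level the median was -0.06. Of the 10 collagens, 6 were lower and 1 higher, with a median of -0.66. COL15A1, a collagen of basement membrane zones, was at 7.93 and 5.58 (-2.34). COL3A1, a fibrillar collagen, was at 7.35 and 4.93 (-2.42) and COL1A1 at 6.23 and 5.11 (-1.12), both dim in ADARkd. COL4A2, of the basement membrane network, was at 7.50 and 6.5 (-1.0). COL5A2, a minor fibrillar collagen, was the exception at 6.12 and 7.35 (1.22). FN1, fibronectin, was at 7.78 and 5.98 (-1.80), and its mean over 2 transcript clusters was -1.03. LAMB2, a laminin chain, was at 8.18 and 6.81 (-1.37), SPOCK1 was 0.94 lower and FBLN1 0.73 lower. The small proteoglycans LUM (9.24 and 10.02, 0.78) and DCN (8.34 and 8.98, 0.64), EFEMP1 (0.69) and THBS1, thrombospondin 1 (0.80), were higher, but DCN (0.50) and EFEMP1 (0.57) were under the bound after quantile scaling. Members of the matrix list also serve as fibroblast markers, whose summed intensity was 2277 on the SCR and 2369 on the ADARkd array. The part of cell mixture in these values was not tested.

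Enzymes that modify and crosslink collagen or other matrix gave fewer lower genes than the collagens did. LOX, the lysyl oxidase that starts crosslinking, was at 8.20 and 6.02 (-2.18). LOXL2 was at 8.56 and 7.44 (-1.11). BMP1, which removes the C-propeptides of procollagen, was at 6.54 and 5.61 (-0.93). P4HA2, a prolyl hydroxylase subunit, was 0.83 lower, with a mean of -0.43 over 2 clusters. Of 17 members, 5 were lower at 1.5-fold and 1 higher, CEMIP2 (0.68, under the bound after either scaling), with a median of -0.12. Secreted proteases and inhibitors were split: besides CPA4, the higher ones were PLAT, tissue plasminogen activator (5.33 and 6.67, 1.34), SERPINE2, which inhibits it and thrombin (7.64 and 8.80, 1.16), PI3, the elastase inhibitor elafin (1.56, dim in SCR), and SPINK6, while HTRA1 was lower (-0.59). The median of the 19 that passed was 0.07, and -0.08 after either scaling.

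Of 11 complement and coagulation genes that passed, 4 were lower at 1.5-fold and 1 higher, with a median of -0.39. C1R was at 8.01 and 6.34 (-1.67) and C1S at 7.94 and 6.29 (-1.66). They encode the paired proteases of the first complement component. PROS1, the anticoagulant protein S, was at 8.61 and 7.19 (-1.42), and CLU, clusterin, was 0.69 lower. F3, tissue factor, which starts coagulation, was at 6.73 and 8.27 (1.54).

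Growth factor systems showed both directions. Of 13 members of the FGF, PDGF, VEGF, HGF and IGF list, 3 were higher and 3 lower, with a median of -0.30. The lower ones belong to the insulin-like growth factor system: IGFBP4 was at 7.0 and 5.43 (-1.56), IGFBP7 at 8.97 and 7.72 (-1.25) and the receptor IGF1R at 8.03 and 7.05 (-0.98). The higher ones were VEGFC, a lymphangiogenic factor (6.08 and 7.27, 1.19), its coreceptor NRP1 (5.55 and 6.67, 1.12) and IGFBP1 (0.85, dim in SCR). In the TGF-beta and BMP list, the pseudoreceptor BAMBI (6.70 and 7.71, 1.01), BMP2 (0.88), ACVR2A (0.77) and TGFBR2 (0.73) were higher. LTBP3, which anchors latent TGF-beta (-0.79), and the BMP antagonist NOG (-0.74) were lower, as was BMP1. The median over 29 genes was -0.04, and after either scaling 5 in place of 3 were lower. Among Wnt, Notch and Hedgehog genes, DKK1, a secreted Wnt inhibitor, was at 5.70 and 7.08 (1.38), GLI3 at 6.21 and 7.41 (1.2), WNT7B 1.25 higher from a dim SCR value and LGR4 0.74 higher. The median over 19 genes was -0.02. Of 18 YAP and TEAD genes, 5 were higher and 2 lower: the targets CCN1, CCN2 (5.69 and 6.79, 1.10), F3 and AJUBA (1.0) and the upstream regulator NF2 (0.67), against AXL (-0.77) and FJX1 (-0.66). After either scaling 4 were higher and 3 lower. The median of the 18 was 0.12, close to the 0.11 of all genes, and 0.08 and 0.02 after quantile and loess scaling.

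Genes of epithelial identity were more often higher. Of 16 keratins and epithelial factors that passed, 7 were higher at 1.5-fold (4 after either scaling) and 1 was lower, with a median of 0.32. KRT19, a keratin of simple epithelia, was at 5.45 and 6.78 (1.32). KRT8 was at 9.22 and 9.99 (0.77) and its partner KRT18 at 7.80 and 8.50 (0.70), while KRT14, of basal stratified epithelium, was at 6.09 and 5.19 (-0.90, dim in ADARkd). Keratins have many pseudogenes, so these values are uncertain. S100A16 (1.19) and the transcription factors EHF (1.35, dim in SCR), KLF5 (0.67) and GATA6 (0.65) were higher. The summed intensity of the epithelial markers was 2259 on the SCR and 2802 on the ADARkd array. That list shares KRT8, KRT18, KRT19 and KRT14 with this one, so its sum is no separate evidence, and its members KRT14 and CLDN7 were lower. Junction genes were mostly close to 0. Of 17 that passed, CLDN1 was the 1 higher and CLDN7, another claudin (8.47 and 7.07, -1.41), the 1 lower. Of 12 genes of epithelial-mesenchymal transition, ENG was 0.60 higher and SNAI2, a repressor of E-cadherin, 0.69 lower. After either scaling 0 were higher at 1.5-fold and 2 lower.

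Adhesion and the cytoskeleton followed. Of 26 integrin and focal adhesion genes, 5 were higher and 2 lower, with a median of 0.26: ITGA6, ITGB8, PXN, CAVIN1 (0.87) and CAVIN3 (0.78), against TNS1 (-1.14, dim in ADARkd) and ITGB5 (-0.61). After either scaling 5 were higher and 3 lower, with medians of 0.13 and 0.12. PXN, paxillin, differed by 1.03, and by 0.54 as the mean of 2 clusters. Of 41 actin and myosin genes, 9 were higher and 2 lower, with a median of 0.38. After either scaling 7 were higher and 2 lower, with medians of 0.26 and 0.24. Over all 7116 genes 12.4% were higher and 5.73% lower before scaling. ARHGAP29, a GTPase-activating protein, was at 5.52 and 6.79 (1.27). The bundlers FSCN1 (0.79) and PLS3 (0.74) were higher, and the actin-severing GSN (-0.67) and the actin-binding CALD1 (-0.88) lower. Among axon guidance genes, the ephrin EFNA1 (6.24 and 7.66, 1.42), its receptor EPHA2 (7.19 and 8.47, 1.29), EFNA5 (0.88) and PLXNA2 (1.30, dim in SCR) were higher and SEMA3B lower (-0.66), with a median of 0.00 over 14 genes.

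Proteasome genes differed in one direction across almost all members. This protease degrades ubiquitinated proteins: a barrel of alpha and beta rings is capped by a regulatory particle of ATPases and other subunits. Of 34 subunit and assembly genes that passed, 33 were above 0, 20 were at least 1.5-fold higher (16 after quantile and 14 after loess scaling), 6 at least 2-fold higher and 0 lower at 1.5-fold. Over all 7116 genes 12.4% were at least 1.5-fold higher. With a median of 0.11, most of all genes were above 0 too, and the count above 0 holds for the deposited scale only. The median was 0.65, and 0.56 and 0.51 after the other scalings. PSMB1, a beta ring subunit, was at 7.25 and 8.47 (1.22), and PSMB3 at 7.93 and 8.98 (1.05). PSMA3, of the alpha ring, was at 8.30 and 9.43 (1.12). PSMD1, the largest subunit of the regulatory particle, was at 7.92 and 9.16 (1.23), and PSMD11 at 8.96 and 10.04 (1.08). PSMC4, an ATPase, was at 7.97 and 9.0 (1.03). By part of the particle, the medians were 0.71 for 6 alpha and 0.71 for 8 beta subunits, 0.81 for 3 ATPases and 0.29 for 10 other regulatory subunits. The 3 assembly factors had a median of 0.72 and the 4 activators 0.34. PSME1, an activator induced by interferon gamma, was the 1 gene below 0, at 7.66 and 7.43. The immunoproteasome subunit PSMB8 was at 6.35 and 6.48. PSME1 and PSMB8 were picked with their values in view.

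**Figure D4:**
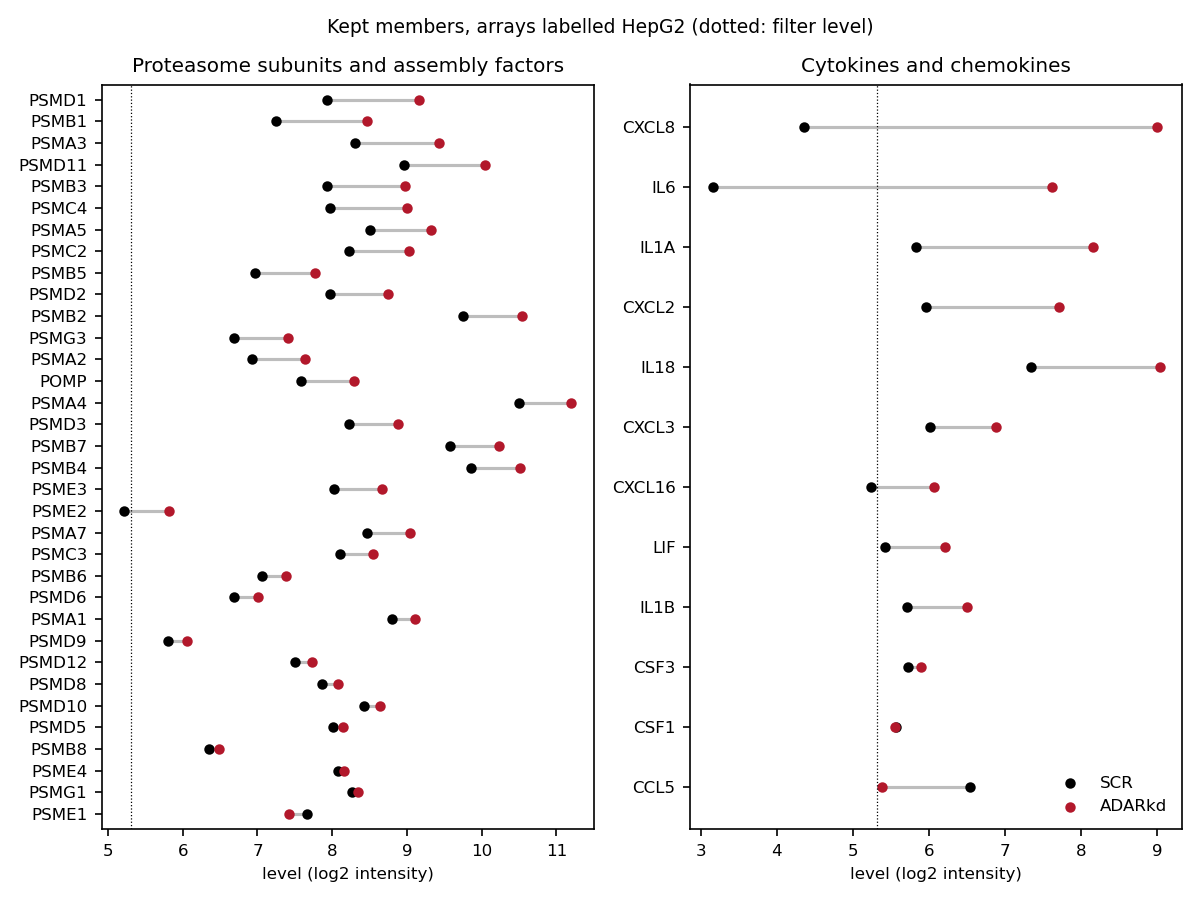
Log2 intensity on the SCR array and on the ADARkd array labelled HepG2, 1 array per arm, with 1 row per gene. Shown are the proteasome genes and the cytokine genes that passed the filter. The dotted vertical line is the filter level of 5.31. Of 34 proteasome genes 33 were higher on the ADARkd array, by up to 1.23 (PSMD1). The 12 cytokines spread from CCL5, lower on the ADARkd array, to CXCL8 and IL6, far higher on it.

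Of 55 genes of mitochondrial import and the mitochondrial ribosome, 17 were at least 1.5-fold higher (11 after either scaling) and 0 lower, with a median of 0.43, or 0.30 after either scaling. MRPL22, of the large subunit, was at 5.82 and 6.95 (1.13) and TIMM22, the pore of an inner membrane translocase, at 7.17 and 8.24 (1.07). The large subunit had a median of 0.50 and the small subunit of 0.41. Ribosome biogenesis genes were higher in 8 of 37 cases (3 after either scaling) and lower in 0, with a median of 0.37, or 0.22 after either scaling. Of all 7116 genes, 879 were higher at this bound, 620 after quantile and 609 after loess scaling. After scaling the 3 of 37 thus lay near the share of all genes. UTP20, of the small-subunit processome, was at 5.54 and 6.65 (1.11), and UTP15 was 0.81 higher. Subunits of RNA polymerase II were higher in 6 of 10 cases, with a median of 0.69: POLR2E was at 7.80 and 8.75 (0.95), POLR2L was 0.90, POLR2C 0.88, POLR2F 0.84 and POLR2G 0.74 higher. Some of these subunits are shared with the other RNA polymerases. The general factors TAF13 (6.56 and 7.84, 1.27), GTF2H1 (0.83) and GTF2A2 (0.63) were higher. The 9 Mediator genes had a median of -0.07, with MED12, a subunit of its kinase module, at 7.44 and 6.14 (-1.30).

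Chaperones had a median of 0.29 over 38 genes, with 4 higher and 1 lower at 1.5-fold. After either scaling, 1 was higher and 2 lower. HSPE1, the mitochondrial cochaperonin, was at 5.48 and 6.45 (0.97), and DNAJB11 of the endoplasmic reticulum was 0.66 and HSPA4 0.61 higher. HSPA8 was the lower one, at 11.96 and 11.29. In translation, EIF4H (8.60 and 9.43, 0.83) and EIF2B3 (0.82) were higher and EEF2K, the kinase that inhibits elongation factor 2, lower (-0.86). The median of its 26 genes was 0.10, and of 10 subunits of eIF3 0.20 with 0 past 1.5-fold. Among 18 tRNA synthetases, HARS1 (0.73) and RARS1 (0.66) were higher and AARS1 lower (10.41 and 9.66, -0.75), and the median of 0.04 turned to -0.05 and -0.10 with the other scalings, which left 0 higher genes. Of 34 nuclear pore and export genes, NUP35 was the 1 past 1.5-fold (0.68, and under it after either scaling), and the median was 0.19.

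Most cell cycle genes, like most of all genes, were under 1.5-fold apart. Over all 7116 genes 12.4% were higher and 5.73% lower at this bound. After quantile scaling 620 of the 7116 were higher and 547 lower. Of 45 replication genes, 8 were higher (4 after either scaling) and 1 lower, with a median of 0.20: POLE2 (0.86), GINS3 (0.81), the kinase CDC7 (0.78), RPA2 (0.72), ORC2 (0.71), GMNN, the inhibitor of licensing (0.63), ORC5 (0.63) and CDC6 (0.62), against GINS4 (-0.65). Of 45 mitosis genes, 5 were higher (1 after either scaling) and 0 lower, with a median of 0.17. KIF18A, a kinesin that aligns chromosomes, was at 5.71 and 6.89 (1.18), and CDC20, CDK1, BUB1 and SPC25 lay between 0.63 and 0.67. DNA repair genes had a median of -0.01 over 40 genes. NBN (0.81), PARP2 (0.60) and XRCC4 (0.59) were higher, and MRE11, which forms a complex with NBN, was lower (-0.62). After either scaling 1 of the 3 was past 1.5-fold upwards. Of 52 chromatin modifiers, 5 were higher (2 after quantile and 1 after loess scaling) and 2 lower (3 after either): SMARCB1 (0.88), SIRT7 (0.72), UHRF1 (0.69), EZH2, the methyltransferase of Polycomb (0.67), and CHD1 (0.63), against KDM3A (-0.84) and HDAC5 (-0.66). Their median was 0.06, and -0.06 after either scaling. Of 25 tubulin and motor genes, 7 were higher and 2 lower (4 and 2 after either scaling). MAPRE2, a microtubule end protein, was 1.08 higher and MAP1B 1.13 and MAP7 0.86 lower. TUBA1B was at 6.46 and 7.76 (1.30), a value that close tubulin paralogs may share.

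Membrane transporters had 7 lower and 5 higher genes among 34 (7 and 3 after either scaling), with a median of 0.08 that was 0.01 after quantile and -0.02 after loess scaling. SLC5A3, the sodium-coupled carrier of myo-inositol, was at 11.24 and 9.36, a difference of -1.88. SLC2A13, the proton-coupled carrier of myo-inositol, was at 6.32 and 4.81 (-1.51, dim in ADARkd). SLC6A6, the taurine carrier, was at 10.01 and 8.64 (-1.38). These 3, singled out after their values were seen, carry organic osmolytes. The neutral amino acid carriers SLC6A15 (7.14 and 5.54, -1.59) and SLC43A1 (-0.92), the nucleoside carrier SLC29A1 (-0.69) and the bicarbonate carrier SLC4A7 (-0.59) were also lower. The SLC5A3 gene overlaps MRPS6, so its signal is less certain. Higher were ABCG2, a multidrug exporter (5.04 and 6.76, 1.72, dim in SCR), the cationic amino acid carrier SLC7A2 (5.73 and 6.77, 1.04), SLC27A2, which activates and takes up fatty acids (0.88), the calcium pump ATP2B1 (0.63) and the phosphate carrier SLC20A1 (0.62).

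Metabolic enzymes came next. Among 18 cholesterol genes, MSMO1 (6.70 and 7.77, 1.07), HMGCS1 (0.68), SQLE (0.61) and DHCR7 (0.61) were higher and INSIG1, which restrains the pathway, lower (-0.59), with a median of 0.20. After either scaling 1 of these was past 1.5-fold upwards. In fatty acid metabolism, ELOVL6, which elongates palmitate, was at 5.88 and 7.27 (1.40), ACSL4 was 0.68 higher and ACADVL, of mitochondrial oxidation, 0.66 lower. In glycolysis and pyruvate metabolism, PDK4, which inhibits pyruvate dehydrogenase, was at 6.83 and 5.61 (-1.21), ENO2 at 8.23 and 7.23 (-1.0) and PFKFB4 was 0.59 lower, while PDHB was 0.72 and PFKFB2 0.60 higher. Among amino acid enzymes, FAH, the last enzyme of tyrosine breakdown, was 1.03 higher from a dim SCR value, in contrast to HPD earlier in that pathway. GOT2 (0.80), CTH, of transsulfuration (0.72), SRM (0.60) and BCAT2 (0.60) were higher. After either scaling, 2 of the 5 higher amino acid enzymes stayed past 1.5-fold, and 5 in place of 3 glycolysis genes were lower. The medians of these lists were 0.10, -0.08 and 0.17, and that of fatty acid genes turned to -0.01 and -0.02 with the other scalings. Of 20 antioxidant and NRF2 target genes, UGDH (0.90) and GCLM (0.68) were higher and ABCC3 lower (-0.80). Their median of 0.04 became -0.08 and -0.09. SLC39A8, a zinc importer, was at 7.54 and 8.62 (1.07) and FTL, ferritin light chain, at 6.93 and 6.01 (-0.92), within 8 metal genes whose median was 0.14 and 0.00 and -0.01 after scaling. FTL has many pseudogenes.

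Sensors of double-stranded RNA and interferon-stimulated genes, which are the pathway ADAR is known to restrain, did not share a direction. Of 52 measured, 28 passed the filter, 6 of them at least 1.5-fold higher (3 after either scaling) and 6 lower, with a median of 0.16, or 0.02 and 0.03 after scaling. SAMD9 was at 5.63 and 7.01 (1.39) and IFI16, a DNA sensor, at 6.99 and 7.87 (0.89). OAS3 (0.70), the kinase TBK1 (0.65), BST2 (0.61) and TRIM25 (0.61) were the other higher genes. PARP9 (-0.91, dim in ADARkd), XAF1 (7.31 and 6.49, -0.82), IFITM1 (8.70 and 7.97, -0.73), IFI6 (-0.71), IRF9, a subunit of the interferon-activated factor ISGF3 (-0.68), and HERC5 (-0.64, dim in ADARkd) were lower. ISG15 was at 5.70 on both arrays, IFIT1 at 7.42 and 7.37, and EIF2AK2, which encodes PKR, at 7.55 and 7.72. These 3 were picked with their values in view. Of 6 antigen presentation genes, the 1 past 1.5-fold was MICB, a stress ligand of natural killer cells, at 7.01 and 7.75 (0.75).

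Among 37 lysosome and autophagy genes, 4 were higher and 4 lower (2 and 8 after either scaling), with a median of -0.03. The higher ones were CTSC (0.88), the transcription factor MITF (0.88), ATP6V0D1 (0.67) and GLA (0.62). The lower ones besides GPNMB were the hydrolases MANBA (-1.01), GAA (-0.70) and MAN2B1 (-0.63). In endocytosis and RAB trafficking, RAB32 (1.34, dim in SCR), RAB9A (7.31 and 8.36, 1.05), RAB27B (0.90), CLTB (0.75) and RAB5C (0.64) were higher and PICALM, a clathrin adaptor, lower (8.45 and 7.44, -1.01). Of 19 ion channel genes, GJA1, connexin 43, was 1.07 higher, and SCNN1A, CACNB3 (-1.06), ORAI3 (-0.75) and KCNMB4 (-0.75) were lower, with a median of -0.13. Among 16 genes of G protein signalling, EDN1, endothelin 1, was at 4.82 and 6.51 (1.70, dim in SCR), GNG11 was 0.86, AVPI1 0.78, ADORA2B 0.74, ADGRG6 0.72 and GPRC5A 0.66 higher, and CXCR4 and ADGRG1 (-1.49, dim in ADARkd) were lower. Of 18 nuclear receptors, PPARG was at 5.82 and 7.08 (1.27). Of 9 HOX genes 0 passed 1.5-fold, and the median was -0.14. MALAT1, a nuclear long non-coding RNA, was at 11.98 and 11.66.

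K562 cells with the same pair of plasmids gave much smaller differences. Of 7116 genes that passed the filter in K562, 73 (1.03%) were at least 1.5-fold apart. Over 6204 genes that passed in both lines, the differences had a standard deviation of 0.19 across genes in K562, and the differences of the lines correlated at r = 0.03 (Pearson, across genes, which are not replicates, with no p-value). Of the 287 genes at least 2-fold apart in cells labelled HepG2, 154 passed in K562, where 64 had the same sign and 6 were at least 1.5-fold apart. Same signs were not counted over all 6204 genes, so the 64 of 154 cannot be read as agreement or disagreement. IL6, CXCL8 and IL1A lay under the filter in K562. The 5 cytokine and chemokine genes that passed there had a median of -0.05, with 0 past 1.5-fold, among them CXCL3 (0.87 in cells labelled HepG2 and -0.05 in K562) and CCL5 (-1.16 and 0.03). Proteasome genes such as PSMB1 (-0.13) and PSMD1 (-0.11) were close to 0 there. Past 1.5-fold in both lines were 21 genes. In 6 the sign was the same: ADAR (-1.69 and -1.21 in K562), HGSNAT (-1.66 and -0.83), BTBD2 (-0.80 and -0.60), CPN1 (0.79 and 0.92), DMAC1 (0.60 and 0.59) and DNM1L, the GTPase of mitochondrial fission (0.80 and 0.60). DMAC1 was under the bound in cells labelled HepG2 after quantile (0.48) and loess (0.47) scaling. In 15 genes the sign was opposite, 12 of them higher in cells labelled HepG2 and lower in K562. Over all genes that passed in cells labelled HepG2, 12.4% were at least 1.5-fold higher and 5.73% lower, which by itself favours that direction. The difference between the lines was not tested, since neither has a second array.

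**Figure D5:**
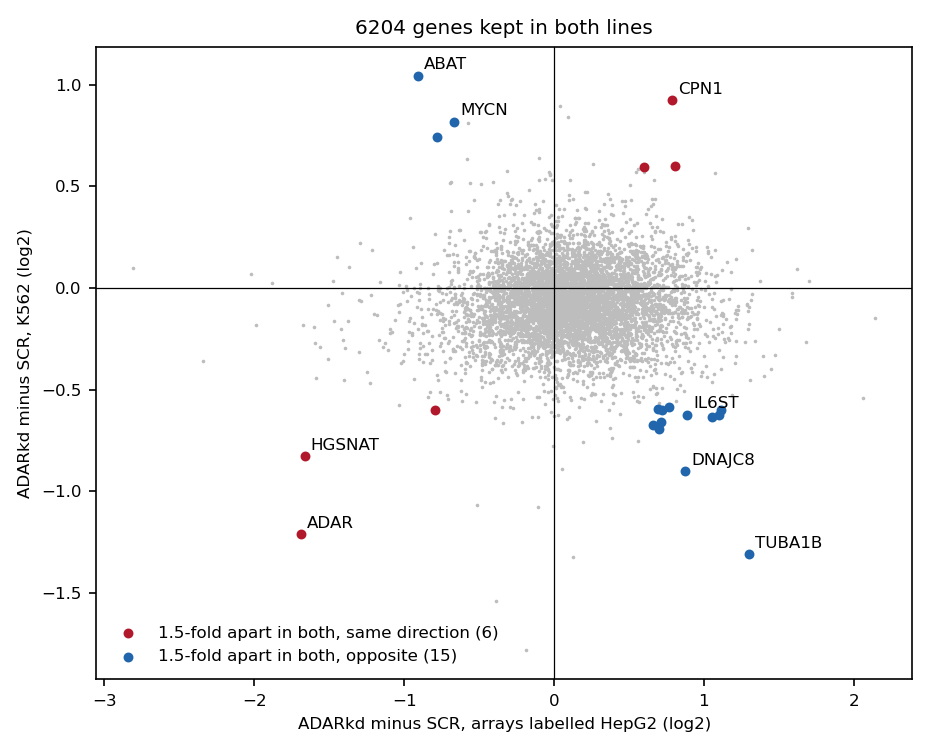
Difference (ADARkd minus SCR, log2) on the arrays labelled HepG2 (x axis) against that in K562 (y axis), one point per gene for 6204 genes that passed the filter in both lines, 1 array per arm and line. Red points are the 6 genes at least 1.5-fold apart in both lines in the same direction and blue points the 15 in opposite directions. ADAR and HGSNAT lie at the lower left, TUBA1B at the lower right.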

How the data were processed

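RNA was measured on 4 Affymetrix whole-transcript arrays, 1 per line and arm, and the 2 labelled HepG2 are the subject. Per the submitters' processing notes, RMA and hg18 were used, with no version. The authors deposited a linear intensity per transcript cluster, with column medians between 36.1 and 37.0. Here log2 was taken with no offset. Detection over background was not analysed here, and precision is limited by the number of arrays.

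The table has 17881 clusters. A single gene symbol belonged to 14432, more than 1 symbol to 2408 and no symbol to 1041, and only the first kind is named. Of the single symbols, 14404 were found in RefSeq's gene table by Entrez number, with 0 changed. Where a gene had several clusters (197 genes), the one with the highest mean was taken. Among the named genes this applied to IL6, FN1, P4HA2, PXN, TSHZ2, IGF1R, PLXNA2 and MYCN, with 2 clusters each. A gene passed the filter if its mean over the line's 2 arrays was at or above the median (5.31 in HepG2, 5.28 in K562). The result is ADARkd minus SCR, counted at 2-fold and 1.5-fold. There is no test.

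Named were the ADAR family, the 20 highest and 20 lowest differences with both arrays over the level, the 12 highest and lowest of all, the 15 genes of highest mean, up to 8 members each way past 1.5-fold in each of 50 lists, and genes past 1.5-fold in both lines. The genes to describe, lists and markers were chosen with earlier results of these data known. Alternatives were quantile and cyclic loess scaling, other filters, an offset of 16 and the mean of a gene's clusters. Counting was tested on simulated data with 200 altered genes. Tools were Python 3.11.15, pandas 2.3.3, numpy 2.4.6, matplotlib 3.10.9, R 4.3.3 and limma 3.58.1 (scaling only).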

Additional observations from a re-analysis of the deposited data

Results flagged for a closer look

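In 15 genes the 1.5-fold difference between the ADARkd and SCR arrays had opposite signs in the cells labelled HepG2 and in K562. With 1 array per arm the difference between the lines was not tested. Over all genes that passed, 12.4% were at least 1.5-fold higher and 5.73% lower in cells labelled HepG2. These shares by themselves favour genes higher there. After scaling of the arrays labelled HepG2, DDIT3 (0.57 after either) and CTH (0.58 after quantile, 0.57 after loess) were under the bound. ULBP1 was under it after quantile scaling (0.58). Higher in cells labelled HepG2 and lower in K562 were TUBA1B (1.30 and -1.31), CHML (1.11 and -0.60), RALB (1.10 and -0.63), DPH3 (1.05 and -0.63), IL6ST (0.89 and -0.62) and DNAJC8 (0.87 and -0.90). The same held for EEF1A2 (0.76 and -0.59), CTH (0.72 and -0.60), LRIF1 (0.71 and -0.66), PRMT6 (0.70 and -0.59), DDIT3, the stress factor CHOP (0.70 and -0.69), and ULBP1, a ligand of natural killer cells (0.66 and -0.67). Lower in cells labelled HepG2 and higher in K562 were ABAT, of GABA breakdown (-0.91 and 1.04), ZSCAN20 (-0.78 and 0.74) and MYCN (-0.66 and 0.82).

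Outside the gene-level results, 1463 transcript clusters with several symbols (1086) or none (377) passed the filter on the arrays labelled HepG2. Of these, 19 were at least 2-fold higher and 25 lower, or 3.01% in all, against 4.03% of the named genes.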

How the results depend on the processing

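The number of genes at least 2-fold apart was 275 after quantile and 273 after cyclic loess scaling, 238 of them shared with the 287 reported in each case. With genes over the 75th percentile alone, which leaves 3558, the count was 116 (75 higher, 41 lower), and at 1.5-fold 450 were higher and 148 lower. With no filter 199 genes were at least 2-fold lower and 693 at least 1.5-fold lower. An offset of 16 gave 186 genes at least 2-fold apart, 103 of them higher. Both arrays over the level left 229 by construction, all of them among the 287. The median of tubulin and motor genes was -0.0130 and that of G protein signalling genes -0.0481 with no filter, the opposite sign of the value reported. The cause was not tested. No gene named for a difference of at least 1.5-fold changed sign under these alternatives, and with the offset of 16 the differences of 65 of 342 named genes moved by over 0.2. No paired analysis was possible because each arm of a line had 1 array, and leaving out an array would leave no comparison. Signal over background was not analysed here, so values under the filter level carry little weight.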

Other observations

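Gene families defined by the letters of the symbol, with at least 12 members that passed the filter, were also surveyed. They overlap with the lists above and are no separate evidence. There were 61 families. The interleukin and interleukin receptor symbols (IL) had the highest median difference, 0.71, with 7 of 12 at least 1.5-fold higher. These are IL6, IL1A, IL18, IL1B, IL6ST, IL20RB and IL4R, already named with the cytokines and their receptors. Of 70 IL genes measured, 58 lay under the filter, and IL6 was dim in SCR. The mitochondrial ribosomal families followed (MRPS 0.44, MRPL 0.40), then RNA polymerase subunits (POLR, 0.38), GTF (0.35), DHX helicases (0.34) and RBM RNA-binding proteins (0.34). The lowest median was that of the collagens (COL, -0.46, with 6 of 13 lower), then TBC (-0.13), TTC (-0.09) and the cytosolic large-subunit ribosomal proteins (RPL, -0.08). Solute carriers (SLC) had 14 higher and 11 lower among 139, and ZNF genes 11 higher and 7 lower among 111, at 1.5-fold. Over all genes that passed, 12.4% were higher and 5.73% lower at this bound, so these 2 families lay near the shares of all genes. Of the KLHL family 4 of 16 were lower and 0 higher.

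Neighbouring genes were also looked at, using the gene order of RefSeq on GRCh38 for 7114 genes. Runs of at least 3 successive genes that passed the filter and were all 1.5-fold apart in one direction numbered 27, of which 26 were higher and 1 lower. Over all genes that passed, 12.4% were at least 1.5-fold higher and 5.73% lower, shares that by themselves favour runs of higher genes. After quantile scaling 620 genes were higher and 547 lower at this bound, and runs were not counted on that scale. The longest had 6 genes: CXCL8 (4.64), CXCL3 (0.87), CXCL2 (1.74), EPGN (2.75), EREG (1.13) and RCHY1 (0.73). Another 2 had 5 genes. One held KITLG (0.73), the ligand of the KIT receptor, with DUSP6, ATP2B1, LUM and DCN, and the other LIPH (1.38), IGF2BP2 (1.01), TRA2B (0.97), ETV5 and DNAJB11. Successive here means with no other gene that passed the filter between them. PTGS2 and PLA2G4A lay in one run with ODR4, and IL1A and IL1B in another with SLC20A1. The run of lower genes was LRRC61, ZBED10P and RARRES2. The genes of these runs were chosen after their values were seen, and no test was made of how often such runs arise.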
